A study of Arabidopsis thaliana with 9 samples.

Results

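Small RNAs (sRNAs) cut from the Ah04mir1887 precursor were compared between the 3 libraries in which they were found. All 147 entries deposited for this precursor were used, and an sRNA was counted as distinct by its start, end, strand and sequence. This gave 95 distinct sRNAs of the 272 in the series, which also holds 109 from the precursor Ah20mirS3 and 68 from Ah20mirS2. The study asked how sRNA precursors of the Arabidopsis halleri self-incompatibility locus act on dominance between its alleles. Its 9 libraries are sRNAs of immature floral buds of transgenic Arabidopsis thaliana, 1 library for each precursor and fraction, the fractions being the input extract and the RNA recovered with antibodies to ARGONAUTE1 (AGO1) and to ARGONAUTE4 (AGO4). The plants of the Ah04mir1887 libraries were of the accession C24 and homozygous for a transgene that carries the precursor with its own flanking A. halleri sequence from the allele Ah04. For precursor transgenes the study selected 1 representative line, and whole buds were ground, so that the cell type producing an sRNA is not resolved.

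The table names its libraries by the codes AVBR-5, AVBR-6 and AVBR-14. The labels tie none of these codes to the input, AGO1-IP or AGO4-IP fraction, so each comparison below is between codes and not between fractions. The table holds no read counts. An sRNA was either listed under a code or not, the depth of each library is unknown, and an sRNA missing from a code may have been present below what that library could show. With 1 library per fraction no test was made. Shares are given with 95% Wilson intervals, which cover counting error only. Overlapping sRNAs of 1 hairpin are not independent, and the codes share members, so these intervals are narrower than the uncertainty of the libraries would be.

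In the Brassicaceae, pollen carries the ligand SCR and the stigma its receptor SRK, and pollen is rejected when both come from the same allele of the S-locus. In heterozygotes usually only the dominant SCR allele is expressed in pollen, and sRNAs made by the dominant allele silence the recessive one. The precursors of these sRNAs are inverted repeats that fold back on themselves, as microRNA precursors do, into a stem of a 5′ and a 3′ arm closed by a loop. Dicer-like enzymes cut such hairpins into duplexes whose strands each extend past the other at the 3′ end. One strand is then bound by an ARGONAUTE protein, and the first base affects which one: AGO1 in plants is known for a preference for a 5′ uracil and AGO4 for a 5′ adenine.

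The listed sRNAs covered positions 13487 to 13603 of the Ah04 S-allele sequence without a gap, all on its plus strand. Joined by their overlaps they give the 117 nt below, shown because every position in the text refers to it. It is written in DNA letters as deposited, with T for U, and capitals mark the terminal loop of the predicted fold (positions 13554 to 13558).

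Ah04mir1887: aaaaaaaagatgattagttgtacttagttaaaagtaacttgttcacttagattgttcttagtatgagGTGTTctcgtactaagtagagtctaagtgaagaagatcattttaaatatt

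The predicted fold had 40 base pairs and a free energy of -41.2 kcal/mol. An sRNA was assigned to the 5′ or 3′ arm by the side of the loop centre (13556) on which its midpoint lay.

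The sRNAs that anchor the comparison are shown next. The first pair are the longest sRNAs of the 2 5′ ends that held the most distinct sRNAs, 1 on each arm. Capitals mark the 18 nt common to all 8 sRNAs of that 5′ end.

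sRNA71 (5′ arm, 13531 to 13555): ACTTAGATTGTTCTTAGTatgaggt

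sRNA292 (3′ arm, 13560 to 13584): TCGTACTAAGTAGAGTCTaagtgaa

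The following 4 sRNAs of 21 nt are those whose listing is described most closely, with the first base in capitals. sRNA255 lies at the place of the annotated mature microRNA of A. thaliana. sRNA329 was the only sRNA listed under AVBR-5 and AVBR-6 but not AVBR-14. sRNA239 was the only one of this length listed under AVBR-5 alone. sRNA67 is a candidate duplex partner of sRNA255, by the geometry of the predicted fold only.

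sRNA255 (13563 to 13583, all 3 codes): Tactaagtagagtctaagtga

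sRNA329 (13557 to 13577, AVBR-5 and AVBR-6): Ttctcgtactaagtagagtct

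sRNA239 (13521 to 13541, AVBR-5): Taacttgttcacttagattgt

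sRNA67 (13531 to 13551, all 3 codes): Acttagattgttcttagtatg

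The 3 codes listed different numbers of sRNAs. AVBR-14 listed 72, AVBR-6 listed 45 and AVBR-5 listed 30 of the 95. Of the 95, 15 were listed under all 3 codes (15.8%, 9.81 to 24.4), 22 under 2 codes and 58 under 1 code (61.1%). AVBR-14 alone listed 36, AVBR-6 alone 14 and AVBR-5 alone 8. Among the pairs, 15 were under AVBR-6 and AVBR-14, 6 under AVBR-5 and AVBR-14, and only sRNA329 was under AVBR-5 and AVBR-6. Most sRNAs were thus listed under a single code when both ends had to match exactly. When both ends could differ by 1 nt, 12 were under 1 code and 46 under all 3. The share under 1 code was 62.4% for Ah20mirS3 and 70.6% for Ah20mirS2, and the share under all 3 was 11.0% (6.41 to 18.3) and 8.82% (4.11 to 17.9), with intervals that overlap that of Ah04mir1887.

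Overlap depended on which list it was taken from. Of the 30 sRNAs of AVBR-5, 21 were also under AVBR-14 (70.0%, 52.1 to 83.3) and 16 under AVBR-6 (53.3%, 36.1 to 69.8). Of the 45 of AVBR-6, 30 were under AVBR-14 (66.7%, 52.1 to 78.6) and 16 under AVBR-5 (35.6%, 23.2 to 50.2). Of the 72 of AVBR-14, 30 were under AVBR-6 (41.7%, 31.0 to 53.2) and 21 under AVBR-5 (29.2%, 19.9 to 40.5). Over all 95 sRNAs, AVBR-14 listed 75.8%, AVBR-6 47.4% and AVBR-5 31.6%. Each overlap was near the share that the other code listed over all sRNAs, and its interval included that share. Of the sRNAs of AVBR-14, 50.0% (38.7 to 61.3) were in neither shorter list.

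**Figure D1:**
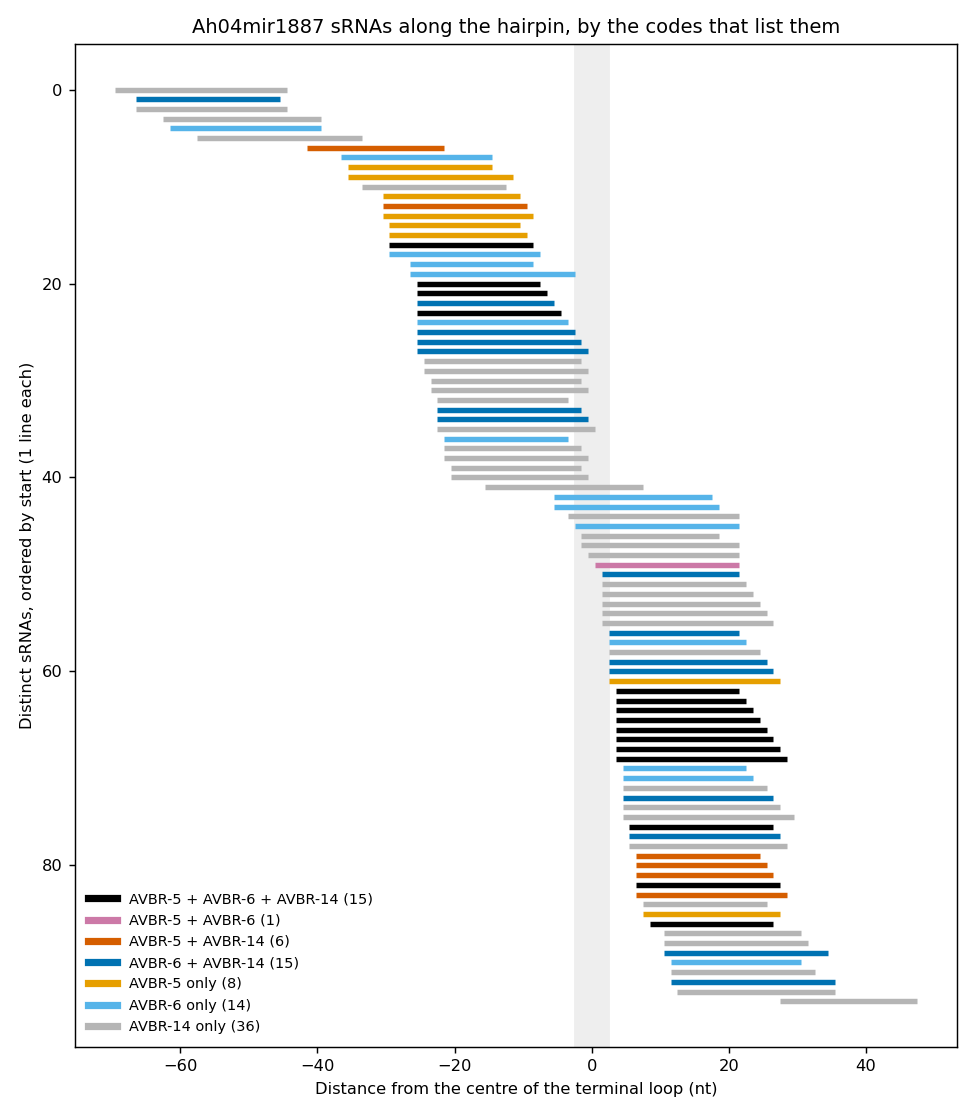
Each line is 1 of the 95 distinct sRNAs, drawn from its first to its last base against the distance from the loop centre in nt and coloured by the codes that list it; the grey band is the terminal loop. The 15 sRNAs under all 3 codes (black) stand in 2 blocks clear of the loop, while sRNAs under AVBR-14 alone (light grey) set both outer ends of the stretch.

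The sRNAs shared by all 3 codes are by definition in AVBR-5, the shortest list, which covered 65 bases between 13515 and 13584. Within that stretch, the 15 shared sRNAs spanned 13527 to 13584, covered 50 of the 117 bases and began at 6 positions. On the 5′ arm they were sRNA235 (13527 to 13547) and sRNA64, sRNA65 and sRNA67, which begin at 13531. On the 3′ arm they were the 8 sRNAs that begin at 13560, with sRNA215 (13562 to 13582), sRNA255 (13563 to 13583) and sRNA165 (13565 to 13582). None reached into the loop, and 9 of the 15 began with U (60.0%). Of the 30 sRNAs of AVBR-5, 1 touched the loop and 66.7% began with U, so these values are not independent of that list. In Ah20mirS3, 6 of 12 sRNAs under all 3 codes began with U, beside 37 of 68 under 1 code and 15 of 29 under 2. In Ah20mirS2 it was 5 of 6, beside 26 of 48 and 9 of 14.

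The 5′ end at 13560 was the most uniform product of the hairpin. It carried 8 sRNAs, 1 of every length from 18 to 25 nt, and each of the 8 was listed under all 3 codes. The capitals in sRNA292 above are their common stretch. No other 5′ end had all of its sRNAs under every code except 13565, which had 1. The 8 sRNAs that begin at 13531 with A also took every length from 18 to 25 nt, but AVBR-6 listed all 8, AVBR-14 listed 7 (22 nt was missing) and AVBR-5 listed 3, of 18, 19 and 21 nt.

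Neighbouring 5′ ends of the 3′ arm were listed differently by code. At 13563, where sRNA255 begins with U, AVBR-5 and AVBR-14 each listed all 5 sRNAs, of 18 to 22 nt, and AVBR-6 listed sRNA255 alone. At 13558, also U, AVBR-14 listed all 6 sRNAs, of 20 to 25 nt, AVBR-6 listed 1 of 20 nt and AVBR-5 listed none. Of these 6, 5 were known from AVBR-14 alone, so its full listing there was largely set in advance. At 13561, which begins with C, AVBR-14 listed 4 of 6, AVBR-6 listed 3 and AVBR-5 listed none. Of these 6, 5 were under 1 code only, so the absence of AVBR-5 there was in part set in advance. AVBR-5 thus listed every sRNA at 13560 and 13563 and no sRNA at 13558 and 13561. At other neighbouring ends it listed a part, with 1 of 6 at 13559, 1 of 3 at 13562 and 1 of 2 at 13564.

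**Figure D2:**
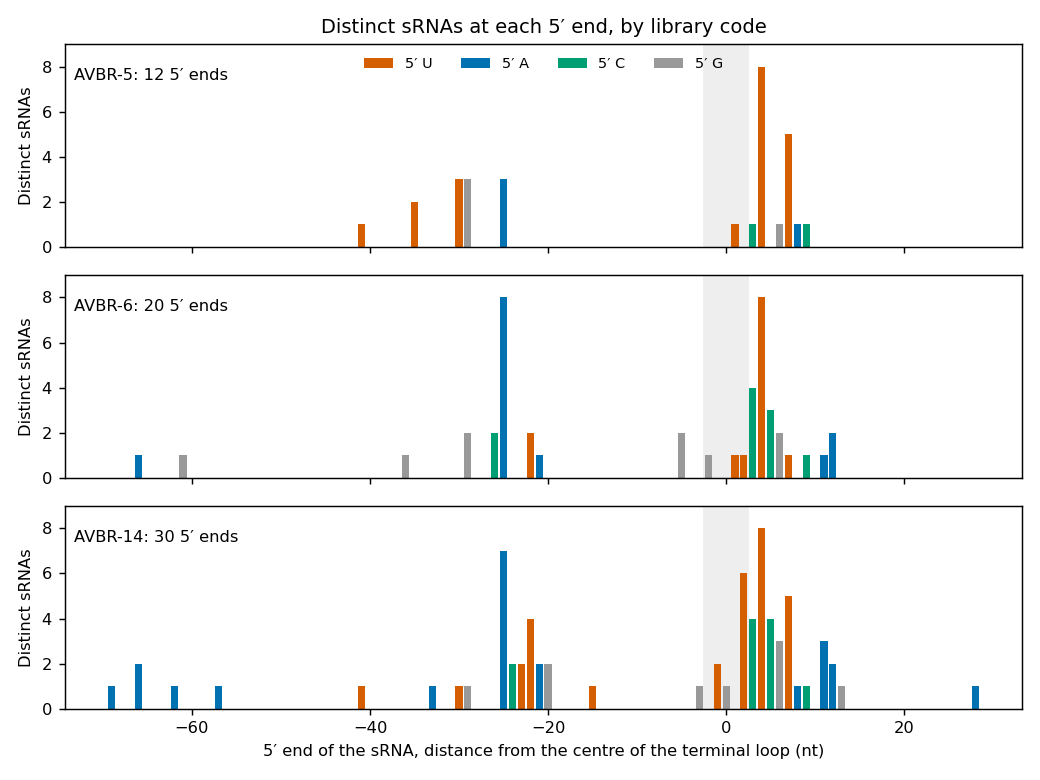
Number of distinct sRNAs (vertical axis) at each 5′ end, by its distance from the loop centre in nt, for AVBR-5 (top), AVBR-6 (middle) and AVBR-14 (bottom); colour gives the first base and the grey band is the loop. The bar of 8 sRNAs beginning with U just past the loop is in all 3 panels, while of the 8 sRNAs at 13531 AVBR-5 shows 3.

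The 95 sRNAs began at 37 positions and ended at 38. Of the 37 5′ ends, 7 were listed under all 3 codes, 11 under 2 and 19 under 1, of which 13 belonged to AVBR-14, 5 to AVBR-6 and 1 to AVBR-5. Of the 38 3′ ends, 12 were under all 3 codes, 14 under 2 and 12 under 1. AVBR-5 used 12 5′ ends, AVBR-6 used 20 and AVBR-14 used 30. Many of the 58 sRNAs under 1 code were variants of shared ends: 32 had their 5′ end (55.2%, 42.5 to 67.3) and 44 their 3′ end (75.9%, 63.5 to 85.0) in an sRNA of another code. Only 7 of the 58 shared neither end. They were sRNA1, sRNA76, sRNA81, sRNA117 and sRNA332 of AVBR-14, sRNA193 of AVBR-6 and sRNA241 of AVBR-5.

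The share of sRNAs with a 5′ U differed most between AVBR-5 and AVBR-6. AVBR-5 had 20 of 30 sRNAs with a 5′ U (66.7%, 48.8 to 80.8), AVBR-6 had 13 of 45 (28.9%, 17.7 to 43.4) and AVBR-14 had 30 of 72 (41.7%, 31.0 to 53.2). The intervals of AVBR-5 and AVBR-6 did not overlap, and that of AVBR-14 overlapped both. A 5′ A was found in 4 of 30 (13.3%), 13 of 45 (28.9%) and 22 of 72 (30.6%), in the same order of codes. Taking only sRNAs that were under one of these codes and not the other, 10 of 14 under AVBR-5 began with U (71.4%, 45.4 to 88.3) and 3 of 29 under AVBR-6 (10.3%, 3.58 to 26.4). None of the 14 sRNAs under AVBR-6 alone began with U, against 4 of 8 under AVBR-5 alone and 12 of 36 under AVBR-14 alone. Over all sRNAs, 35 of 95 began with U (36.8%, 27.8 to 46.9) and 26 of 95 with A (27.4%). The U shares of AVBR-14 and of AVBR-14 alone were near the first of these.

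These shares count several sRNAs of 1 5′ end separately. Counted once per 5′ end, U made up 6 of 12 under AVBR-5 (50.0%, 25.4 to 74.6), 5 of 20 under AVBR-6 (25%, 11.2 to 46.9) and 9 of 30 under AVBR-14 (30.0%, 16.7 to 47.9). The order of the codes was the same, and the 3 intervals overlapped. Among the 37 5′ ends of listed sRNAs, 11 had a U. AVBR-5 listed all 20 sRNAs at 6 of them (13515, 13521, 13526, 13557, 13560 and 13563) and none of the 15 at the other 5 (13533, 13534, 13541, 13555 and 13558), so a 5′ U alone did not separate what AVBR-5 listed from what it did not. Both sRNAs at 13521 and 2 of the 3 at 13526 were known from AVBR-5 alone, so its full listing was in part set in advance.

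**Figure D3:**
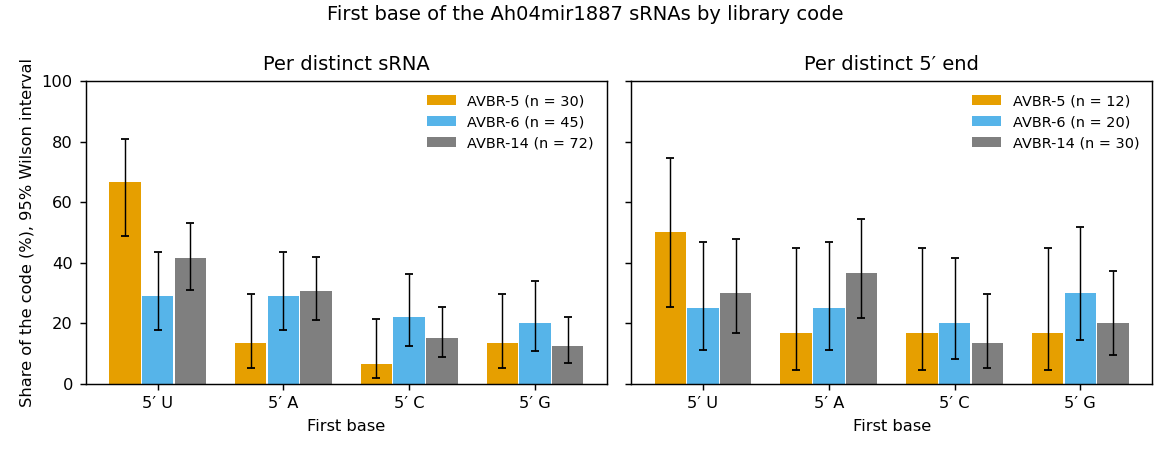
Share of sRNAs (left) and of distinct 5′ ends (right) with each first base, in percent, for the 3 codes; error bars are 95% Wilson intervals. U is highest in AVBR-5, at 66.7% of sRNAs, and the intervals of AVBR-5 and AVBR-6 are apart on the left and overlap on the right.

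The share with a 5′ U was higher under AVBR-5 than under AVBR-6 in each length class. It was 8 of 14, 8 of 11 and 4 of 5 under AVBR-5 for 18 to 20, 21 to 22 and 23 to 25 nt, and 4 of 15, 6 of 16 and 3 of 14 under AVBR-6. Under AVBR-14 it was 10 of 21, 10 of 24 and 10 of 27. The intervals of AVBR-5 and AVBR-6 overlapped in each class. By the number of codes, a 5′ U was found in 16 of 58 sRNAs under 1 code (27.6%), 10 of 22 under 2 (45.5%) and 9 of 15 under all 3 (60.0%), and 8 of these 9 were the sRNAs at 13560. Counted once per 5′ end this order did not hold, with 7 of 32 (21.9%), 6 of 13 (46.2%) and 2 of 6 (33.3%). Per code it ranged between 28.9% and 66.7% here, between 21.1% and 67.9% in Ah20mirS3 and between 51.7% and 71.4% in Ah20mirS2.

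Lengths ran from 18 to 25 nt under every code. The median was 21 nt under AVBR-5 and AVBR-6 and 22 nt under AVBR-14, and the mean over sRNAs was 20.8 ± 1.98 nt (SD, n = 30), 21.4 ± 2.13 (n = 45) and 21.7 ± 1.98 (n = 72). sRNAs of 18 to 20 nt made up 46.7% of AVBR-5 (30.2 to 63.9), 33.3% of AVBR-6 (21.4 to 47.9) and 29.2% of AVBR-14 (19.9 to 40.5). Those of 23 to 25 nt made up 16.7% (7.34 to 33.6), 31.1% (19.5 to 45.7) and 37.5% (27.2 to 49.0). By these values the sRNAs of AVBR-5 were shortest and those of AVBR-14 longest, but the intervals of the 3 codes overlapped in both classes. Over all 95 sRNAs the shares were 32.6% and 34.7%. Of the 27 sRNAs of 23 to 25 nt under AVBR-14, 17 were known from it alone. Among sRNAs under 1 code the order did not hold, with means of 21.4 nt for AVBR-5, 21.1 for AVBR-6 and 22.1 for AVBR-14.

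**Figure D4:**
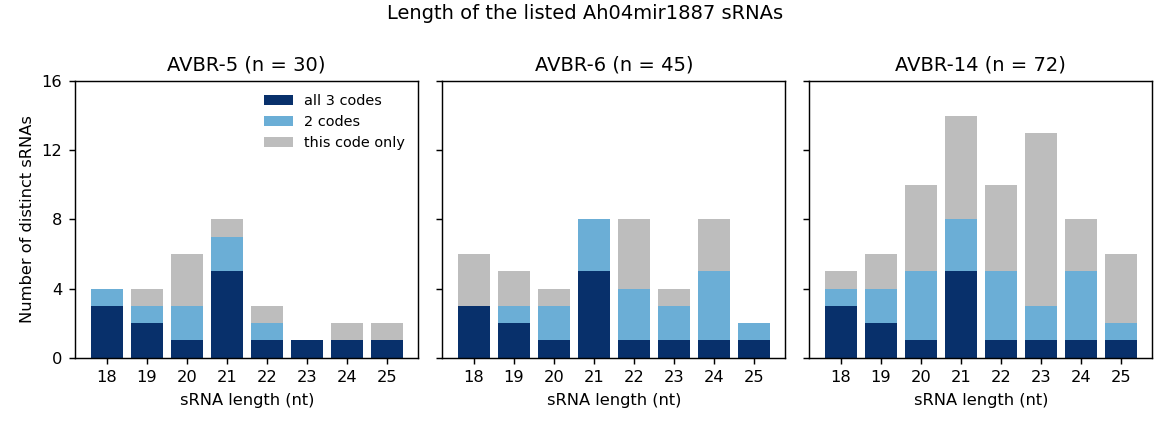
Number of distinct sRNAs of each length from 18 to 25 nt for AVBR-5, AVBR-6 and AVBR-14, stacked by whether they are listed under all 3 codes, 2 codes or this code only. At 21 nt, 5 sRNAs are under all 3 codes, and the 23 nt bar of AVBR-14 is mostly its own.

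Of the 16 sRNAs of 21 nt, the length of most plant microRNAs, 5 were under all 3 codes, 4 under 2 and 7 under 1, beside 15, 22 and 58 of the 95 sRNAs of any length. At 18 nt, 3 of 8 were under all 3 codes. Of the 7, AVBR-14 listed 6 (sRNA76, sRNA89, sRNA294, sRNA156, sRNA29 and sRNA103), AVBR-5 listed sRNA239 and AVBR-6 listed none. AVBR-6 therefore had all 8 of its sRNAs of 21 nt in common with another code. sRNAs of 24 nt, the length bound by AGO4 in RNA-directed DNA methylation, numbered 2 of 30 under AVBR-5 (6.67%, 1.85 to 21.3), 8 of 45 under AVBR-6 (17.8%, 9.29 to 31.3) and 8 of 72 under AVBR-14 (11.1%, 5.74 to 20.4), with intervals that overlapped, beside 12 of all 95 (12.6%).

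Assigned by midpoint, the arms contributed alike to each code. The 5′ arm held 12 of 30 sRNAs under AVBR-5 (40%), 18 of 45 under AVBR-6 (40%) and 29 of 72 under AVBR-14 (40.3%). Among sRNAs clear of the loop it held 41.4%, 38.9% and 31.25%, and with arms assigned by 5′ end 40%, 46.7% and 44.4%, in the same order. The 5′ arm held 29 of the 58 under 1 code (50.0%) and 4 of the 15 under all 3 (26.7%, 10.9 to 52.0). Over all sRNAs it held 42 of 95 (44.2%), which lies within the last interval. Of the 11 on the 3′ arm under all 3 codes, 8 begin at 13560. The stretch covered rose with the number of sRNAs listed. AVBR-5 covered 65 of the 117 bases, between 13515 and 13584, AVBR-6 covered 99, between 13490 and 13591, and AVBR-14 covered all 117. The 117 bases were joined from these same lists, and both outer ends came from sRNAs under AVBR-14 alone. That AVBR-14 reached both ends was therefore set by how the stretch was built. The outermost sRNAs were sRNA238 (13515 to 13534) and sRNA292 for AVBR-5, sRNA2 (13490 to 13510) and sRNA104 (13568 to 13591) for AVBR-6, and sRNA1 (13487 to 13511) and sRNA81 (13584 to 13603) for AVBR-14.

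All 18 sRNAs of the 3′ arm under AVBR-5 began in the 9 nt from 13557 to 13565. The same 9 nt, chosen after the values were seen, held 21 of the 27 of AVBR-6 and 32 of the 43 of AVBR-14. Few sRNAs of AVBR-5 touched the loop: 1 of its 30 did, beside 9 of 45 under AVBR-6 and 24 of 72 under AVBR-14. Over all sRNAs, 14 of the 42 of the 5′ arm and 14 of the 53 of the 3′ arm did. AVBR-14 was the only code to list 10 of the former 14 and 9 of the latter 14. Its count of 24 was thus largely set in advance. Among the 9 under AVBR-6, 3 were known from it alone, all from the 3′ arm. The base covered by the most sRNAs on the 3′ arm lay in 13565 to 13577 for AVBR-5 (18 sRNAs), in 13568 to 13573 for AVBR-6 (27) and in 13569 to 13574 for AVBR-14 (42). These stretches overlapped between the codes. On the 5′ arm the densest bases were 13531 to 13534 (12 sRNAs), 13535 to 13541 (16) and 13541 to 13543 (23).

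Duplexes of the kind a Dicer-like enzyme leaves, with a 3′ overhang of 2 nt at both ends, were sought among the listed sRNAs. Only sRNAs that begin in the symmetric part of the stem (13524 to 13588) were considered, those of the 3′ arm past the loop, which left 31 of the 42 of the 5′ arm and 39 of the 53 of the 3′ arm. Of their 1181 pairs that share no base, 17 had this geometry, and in 14 both strands were listed under at least 1 common code. AVBR-14 held both strands of 13 of them, AVBR-6 of 4 and AVBR-5 of 1. These counts come from lists of 72, 45 and 30 sRNAs, and the pairs possible under each code were not counted. They do not show that a code is richer in duplexes. In 4 of the 17 both strands were 21 nt: sRNA314 with sRNA103, sRNA235 with sRNA29, sRNA67 with sRNA255, and sRNA265 with sRNA284. Of these 4, both strands of sRNA67 with sRNA255 were under all 3 codes, and sRNA265 with sRNA284 were under AVBR-6 and AVBR-14. Other equal overhangs were as frequent, with 16 pairs at 1 nt and 16 at 3 nt. Both strands were under a common code in 12 and 13 of these. An overhang of 2 nt thus did not stand apart among pairs of listed sRNAs.

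The reference genome of A. thaliana holds a related gene, MIR1887, on chromosome 4 of TAIR10.1, at 11370263 to 11370325 on the plus strand, which aligns to 13525 to 13587 of the S-allele. Its annotated mature microRNA (11370301 to 11370321) aligns to the 21 nt of sRNA255 with 1 difference, T19A, counted from 1 at the 5′ end of the sRNA with the base of the sRNA first. The annotated sequence is shown for comparison with sRNA255, with the differing base in capitals.

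ath-miR1887: tactaagtagagtctaagAga

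The reference is the accession Col-0 and the plants were C24, whose own sequence was not used here. Of the 95 sRNAs, 58 matched the MIR1887 locus exactly, and none of the 58 matched anywhere else in TAIR10.1. By code the exact matches were 18 of 30 (60.0%, 42.3 to 75.4) under AVBR-5, 29 of 45 (64.4%, 49.8 to 76.8) under AVBR-6 and 39 of 72 (54.2%, 42.7 to 65.2) under AVBR-14. For these sRNAs, products of the transgene and of the host gene cannot be told apart by sequence. The 4 longest of the 8 sRNAs at 13560, of 22 to 25 nt, and sRNA255 differed from the locus by 1 base. With up to 1 mismatch, all 30 sRNAs of AVBR-5 matched, as did 40 of AVBR-6 and 59 of AVBR-14, beside 80 of all 95 (84.2%). Every sRNA with more mismatches extended outside 13515 to 13584, the stretch in which AVBR-5 lay. The full count of AVBR-5 is therefore not separate from its position.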

How the data were processed

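Immature floral buds of transgenic A. thaliana were sampled, with 1 library per fraction. According to the study's methods, reads were trimmed with Trim Galore and mapped with ShortStack, which runs Bowtie, both to the S-allele and to a TAIR10 genome whose S-locus was masked, and reads that also mapped outside the S-locus were dropped. The deposited table gives the authors' position, length, strand, sequence and library code for each sRNA, and no read counts, so the depth is unknown. The 3 codes match no sample label and were not assigned to fractions.

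Start positions, which count from 0 in the table, are printed counted from 1. The precursor was rebuilt from overlapping sRNAs and folded with RNAfold 2.7.2. Exact matches were sought in the RefSeq copy of TAIR10.1, from which the MIR1887 annotation was taken. Shares and Wilson intervals were computed with scipy 1.17.1. Hairpin and duplex steps were tested on simulated data, 200 hairpins.

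The sRNAs named were those under all 3 codes, those of 21 nt under 1 code, the outermost of each code, those at the most populated 5′ end of each arm and those of the rarest pair of codes. Others, among them duplex strands and sRNAs sharing neither end, were named after their values were seen. The members and these rules were chosen with earlier results of these data known. Alternatives changed what makes an sRNA distinct, which sRNAs were counted, the arm assignment and the mismatches allowed.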

Additional observations from a re-analysis of the deposited data

How the results depend on the processing

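Of 57 alternative values, 42 stayed within the limits set (1.5 times for a count, the Wilson interval for a share) and 15 moved. Counting 5′ ends alone gave 12, 20 and 30 for AVBR-5, AVBR-6 and AVBR-14, with 7 under all codes and 19 under 1 code. Accepting both ends within 1 nt gave 46 under all codes and 12 under 1 code, so sharing depended strongly on how exactly ends had to match. Leaving out each code in turn gave 16 to 30 under all remaining codes (30 without AVBR-5) and 43 to 60 under 1 code. Among sRNAs under the code alone, 21 nt made up 12.5% of AVBR-5 and 0% of AVBR-6. By distinct 5′ ends, U made up 30.0% of AVBR-14. Up to 1 mismatch to MIR1887 gave 100%, 88.9% and 81.9%, beside 84.2% of all sRNAs. Leaving out the 5′ end at 13560, chosen after seeing the data, gave a U share of 54.5% under AVBR-5, 13.5% under AVBR-6 and 34.4% under AVBR-14. The cause of these shifts was not tested. No paired analysis was possible because each fraction has 1 library and no test was made. Unknown depth limits every statement about an sRNA missing from a code.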
